A study of Homo sapiens with 6 samples.

Results

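The epithelial integrin subunits described here were 10 genes picked by name, the α subunit genes ITGA2, ITGA3, ITGA5, ITGA6 and ITGAV and the β subunit genes ITGB1, ITGB4, ITGB5, ITGB6 and ITGB8, out of 40448 gene IDs with a deposited value. Their mRNA levels came from 6 clones of the established line KYSE150, which derives from a human oesophageal squamous cell carcinoma. Of these, 3 mock clones (1, 4 and 5) were stable transfectants of the empty pIRES2-EGFP plasmid, and 3 clones (1, 6 and 17) stably carried a vector for human NCCRP1, a gene of the F-box-associated domain family. Each clone gave 1 library of ribosome-depleted total RNA, so each group was 3 clones of 1 line, and p-values measure the spread between these libraries alone. Sequencing run 15 held mock clones 1 and 4 with NCCRP1 clone 1, and run 14 held mock clone 5 with NCCRP1 clones 6 and 17, as the deposited data name them. The promoter that drives NCCRP1 in the vector is not given in the sources used here.

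Integrins are cell-surface receptors in which an α and a β chain pair to bind the extracellular matrix outside and the cytoskeleton inside. ITGB1 pairs with many α chains, ITGB4 only with ITGA6, and ITGAV with several β chains. Basal cells of squamous epithelia sit on laminin through α3β1 and, in hemidesmosomes, through α6β4, whereas α5β1 (a fibronectin receptor) and αvβ6 (a receptor that also activates latent TGF-β) are known from wounds and carcinomas.

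Values are log2 RPKM, the base 2 logarithm of reads per kilobase of transcript scaled to the reads of the library, so that levels of different genes can be set side by side. No value below 0 was listed. A listed 0 therefore covers anything under 1 RPKM, and can also stand for a gene with no estimate. The NCCRP1 gene itself was listed at 0 in each mock clone and at 6.19, 8.07 and 6.71 in NCCRP1 clones 1, 6 and 17. The libraries rested on an estimated 12290000 to 18070000 reads and correlated across tested genes with r between 0.97 and 0.989. All 10 squamous epithelial markers looked at, such as KRT5 and TP63, were above 0. Of the markers of other cells, 7 of 10 leukocyte, 7 of 10 endothelial and platelet and 9 of 10 fibroblast genes were listed at 0 in every library, among them PTPRC, PECAM1 and PDGFRB. Summed RPKM of the leukocyte markers ranged from 22.5 to 31.9 over the mock clones and from 29.4 to 46.8 over the NCCRP1 clones, mostly LCP1, which was higher in each NCCRP1 clone than in any mock clone, if narrowly. The part of this in the integrin values was not tested. The sums were 10.3 to 12.8 and 8.66 to 13.4 for endothelial and platelet markers and 3.51 to 5.94 and 2.5 to 5.62 for fibroblast markers.

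The start-site sequences of the pair of members with the lowest unadjusted p in the comparison below, ITGA5 and ITGB6, are shown. These genes varied together over the clones (Pearson r of 0.97), as did ITGA3 and ITGB5 (0.97), and a link to sequence was not tested. The r with ITGB6 includes its listed 0 in mock clones 1 and 5. Each sequence is the 250 bases before the RefSeq start (GRCh38.p14), 5′ to 3′ on the strand of the gene, with matches to a searched motif in capitals.
ITGA5, chr12:54419267-54419516, minus strand: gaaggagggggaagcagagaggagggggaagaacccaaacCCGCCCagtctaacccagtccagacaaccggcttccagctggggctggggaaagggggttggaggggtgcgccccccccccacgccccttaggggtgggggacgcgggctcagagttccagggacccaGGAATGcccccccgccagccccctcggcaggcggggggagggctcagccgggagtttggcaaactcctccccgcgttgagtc
ITGB6, chr2:160200273-160200522, minus strand: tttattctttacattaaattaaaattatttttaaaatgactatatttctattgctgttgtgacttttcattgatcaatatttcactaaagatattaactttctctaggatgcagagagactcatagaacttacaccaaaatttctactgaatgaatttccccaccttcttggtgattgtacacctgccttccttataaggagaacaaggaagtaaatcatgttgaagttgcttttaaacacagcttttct
The stretch before ITGA5 is 70.0% G or C and that before ITGB6 30%, against a median of 58.0% over 35116 RefSeq promoters. In the ITGA5 stretch the capitals mark a GC box, GGGCGG, read on the opposite strand and beginning 210 bases before the start, and a TEAD motif, GGAATG, beginning 82 bases before it. The ITGB6 stretch held none of the motifs searched on both strands, which were also the CCAAT box, the TATA motif TATAAA, the AP-1 motif TGANTCA, the STAT motif TTCNNNGAA and the ETS motif CCGGAA. The motif matches shown do not overlap one another. GGGCGG occurs in 42.6% of all promoters, GGAATG in 11.9%, CCAAT in 32%, TATAAA in 10.7%, TGANTCA and TTCNNNGAA each in 6.57% and CCGGAA in 14.5%. Of the 10 genes 8 had a promoter entry, with 13 start sites between them, and 7 of these 13 held GGGCGG, 2 held GGAATG and 0 held TGANTCA or TTCNNNGAA. A match describes letters in this window and is not a measured binding site.

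In the mock clones ITGB4, ITGA3 and ITGB1 were the most abundant, and the levels of the 10 genes formed an order without overlap. ITGB4, the hemidesmosomal β chain, led with 7.60 ± 0.10 log2 RPKM (SD, n = 3), followed by ITGA3, the α chain of the laminin receptor α3β1, with 7.27 ± 0.13. ITGB1, the shared β chain, stood at 6.31 ± 0.23 and ITGB5, a β partner of αv and receptor for vitronectin, at 5.38 ± 0.23. ITGA6 (4.41 ± 0.06), ITGA5 (4.04 ± 0.17) and ITGAV (3.70 ± 0.12) came next. ITGA2, the α chain of the collagen receptor α2β1, was at 2.82 ± 0.52 and ITGB8, the β chain of the TGF-β-activating αvβ8, at 1.95 ± 0.15. ITGB6 was the lowest, listed at 0, 0.66 and 0 in mock clones 1, 4 and 5. No gene's range over the mock clones reached that of its neighbour in this order.

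In the NCCRP1 clones the order had 3 pairs of neighbours whose ranges overlapped. ITGA3 at 7.53 ± 0.19 log2 RPKM and ITGB4 at 7.42 ± 0.07 were not separated, nor were ITGA5 at 4.58 ± 0.16 and ITGA6 at 4.56 ± 0.18. ITGB8 at 2.15 ± 0.34 was not separated from ITGB6, which was at 1.09, 2.48 and 1.74 in NCCRP1 clones 1, 6 and 17.

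**Figure D1:**
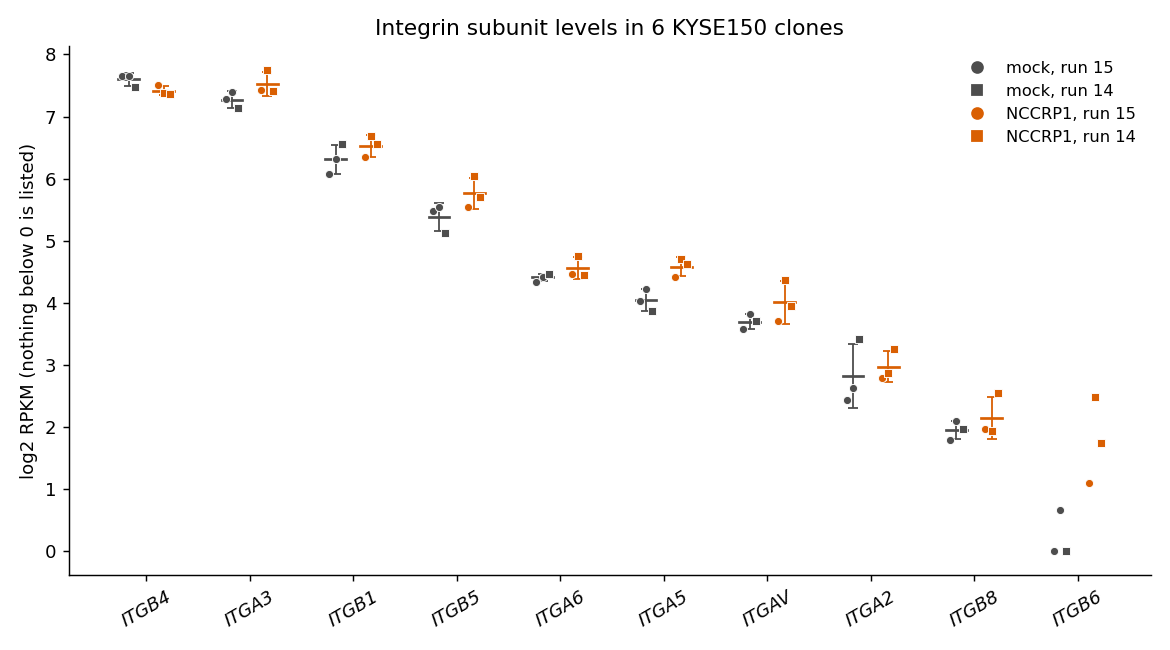
Log2 RPKM of the 10 integrin subunit genes (x axis, ordered by their mean over all libraries) in each clone, circles for run 15 and squares for run 14, grey for mock and orange for NCCRP1. Bars are the mean and SD of 3 clones, left out for ITGB6, which was listed at 0 in 2 mock clones. The NCCRP1 clones lie above the mock clones without overlap for ITGB6, ITGA5, ITGB5 and ITGA3, the last pair by a narrow margin.

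The comparison of mock with NCCRP1 clones asked which subunit genes differ when NCCRP1 is expressed. None of the 10 passed limma's moderated test over all 12737 tested genes at an adjusted p of 0.05, where 0.102% of all tested genes did. At an unadjusted p under 0.05 there were 3 members, ITGB6, ITGA5 and ITGB5, each with higher values in NCCRP1 clones, against 3.54% of tested genes in that direction and 7.33% in either. For 4 of 10, these and ITGA3, every NCCRP1 clone lay above every mock clone, against 5.71% of tested genes. The mean was higher in NCCRP1 clones for 9 of 10 members, with ITGB4 the exception, against 46.7% of tested genes, and the median log2 difference of the 10 was 0.24, against -0.016 for all tested genes. All 10 members were tested. They were chosen with earlier results of these data known, and several varied together over the clones. Counts of members beside shares of all tested genes are therefore a description and no test of the set. In bulk libraries such as these, more cells with a transcript and more of it per cell cannot be told apart. For the 4 genes without overlap the exact permutation test (two-sided) gave p = 0.1, the smallest that 3 against 3 libraries allow.

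ITGB6 encodes the β6 chain, which pairs with αv alone and is known to be induced at epithelial wound edges. It was listed at 0, 0.66 and 0 log2 RPKM in mock clones 1, 4 and 5, against 1.09, 2.48 and 1.74 for NCCRP1 clones 1, 6 and 17. The 3 NCCRP1 clones were all above the highest mock clone, mock clone 4, and were spread more widely than any other member's. The listed values differed by 1.55 (SE 0.34, 95% interval 0.80 to 2.30, limma adjusted p = 0.179), with no fold change given because of the listed 0. The difference of the listed values was 0.76 within run 15 and 2.11 within run 14. At the estimated depth and the length of its longest annotated transcript, 1 RPKM of ITGB6 is about 57 to 84 reads, and its values above 0 rested on about 94 to 415 reads. Leaving out NCCRP1 clone 1 gave the lowest adjusted p of any member under any setting, 0.0565, and leaving out NCCRP1 clone 6 lowered the difference to 1.19. With a listed 0 taken as 0 RPKM, the difference was 1.71 for log2(RPKM + 1) and 3.78 for log2(RPKM + 0.1) (limma adjusted p = 0.281 and 0.451). Its size thus depends on how a listed 0 is treated.

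ITGA5, the α chain of the fibronectin receptor α5β1, was at 4.03, 4.22 and 3.87 log2 RPKM in mock clones 1, 4 and 5, against 4.41, 4.71 and 4.62 for NCCRP1 clones 1, 6 and 17. The lowest NCCRP1 clone, clone 1, was thus above the highest mock clone, clone 4. The group means differed 1.45-fold (log2 difference 0.54, SE 0.15, 95% interval 0.20 to 0.87, limma adjusted p = 0.355). The difference was 0.28 within run 15 and 0.79 within run 14. It lay between 0.45 and 0.63 in each of the 17 other settings, at an unadjusted p under 0.05 in all 17.

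ITGB5, the β chain of the vitronectin receptor αvβ5, was at 5.47, 5.54 and 5.12 log2 RPKM across the mock clones, against 5.55, 6.04 and 5.71 across the NCCRP1 clones, in the same clone order. NCCRP1 clone 1 was level with mock clone 4 to within 0.01, and mock clone 5 was the lowest. The 1.31-fold difference of the means (log2 0.39, 95% interval 0.01 to 0.77, limma adjusted p = 0.659) was 0.05 within run 15 and 0.75 within run 14. It came to 0.26 without mock clone 5 and also to 0.26 without NCCRP1 clone 6.

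ITGA3 stood at 7.28, 7.40 and 7.13 log2 RPKM in mock clones 1, 4 and 5, against 7.42, 7.75 and 7.41 for NCCRP1 clones 1, 6 and 17. Only NCCRP1 clone 6 was clearly apart, and clone 17 exceeded mock clone 4 by 0.01. The difference of 0.26 had a 95% interval of -0.11 to 0.62 (limma adjusted p = 0.825) and was 0.08 within run 15 and 0.45 within run 14. Without NCCRP1 clone 6 it was 0.15.

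**Figure D2:**
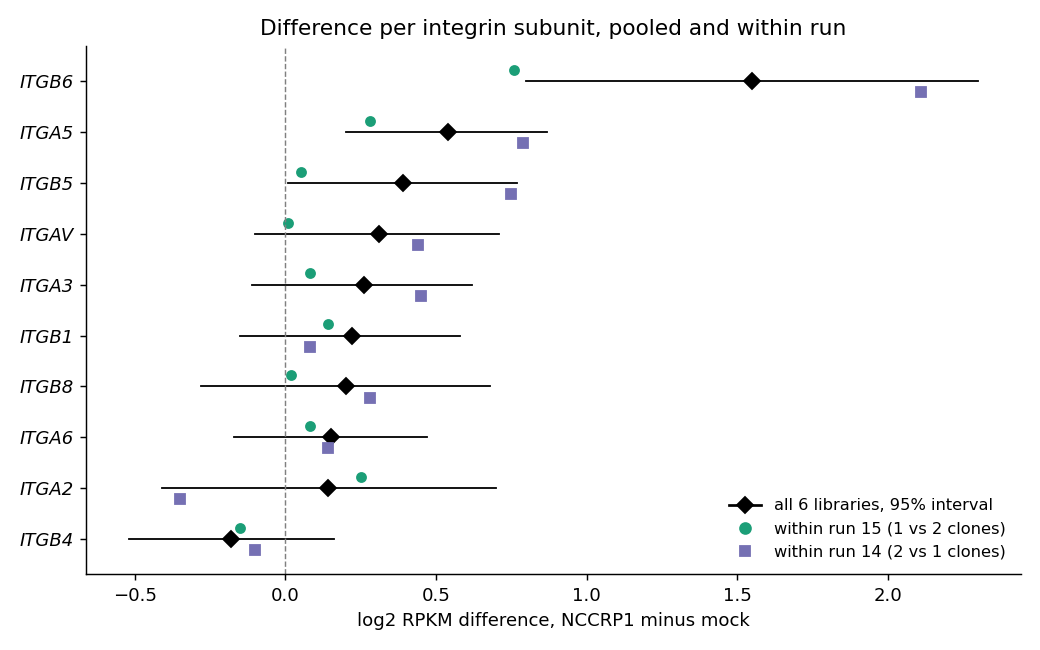
Log2 RPKM difference, NCCRP1 minus mock, for each subunit gene (y axis). Diamonds and lines are limma's estimate over all 6 libraries with its 95% interval, circles the difference within run 15 (1 NCCRP1 clone against 2 mock clones) and squares that within run 14 (2 against 1). The interval lies above 0 for ITGB6, ITGA5 and ITGB5, and ITGB6 rests on listed values of 0 in 2 mock clones.

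The remaining subunits had groups that overlapped. ITGAV, the α chain shared by αvβ5, αvβ6 and αvβ8, was at 3.57, 3.81 and 3.71 log2 RPKM in mock clones 1, 4 and 5, against 3.70, 4.37 and 3.94 for NCCRP1 clones 1, 6 and 17 (difference 0.31, 95% interval -0.10 to 0.71). ITGB1 was at 6.08, 6.31 and 6.55 across the mock clones, against 6.34, 6.69 and 6.56 across the NCCRP1 clones (difference 0.22, 95% interval -0.15 to 0.58). NCCRP1 clone 6 was the highest of all libraries for both genes, and mock clone 1 the lowest. Without NCCRP1 clone 6 the difference fell to 0.12 for ITGAV and to 0.14 for ITGB1, and without mock clone 1 that of ITGB1 was 0.10.

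ITGA6, the α chain of α6β4 and α6β1, was at 4.34, 4.42 and 4.46 log2 RPKM across the mock clones, against 4.46, 4.76 and 4.44 across the NCCRP1 clones (difference 0.15, 95% interval -0.17 to 0.47, and 0.04 without NCCRP1 clone 6). ITGB4 was the only member with a lower mean in NCCRP1 clones, at 7.66, 7.65 and 7.48 in mock clones 1, 4 and 5, against 7.50, 7.38 and 7.37 for NCCRP1 clones 1, 6 and 17. Mock clone 5 fell within the NCCRP1 range of ITGB4, and the difference of -0.18 had a 95% interval of -0.52 to 0.16. ITGB4 shares part of its locus with GALK1, which was at 4.28 to 4.89 log2 RPKM, and whether the authors' counting used strand is not given in the sources used here.

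ITGA2 and ITGB8 varied more within a group than between the groups. ITGA2 was at 2.43, 2.62 and 3.41 log2 RPKM across the mock clones, against 2.78, 2.87 and 3.25 across the NCCRP1 clones, so that mock clone 5 was the highest of all. Its difference of 0.14 (95% interval -0.41 to 0.70) was 0.25 within run 15 and -0.35 within run 14, and between -0.05 (without mock clone 1) and 0.44 (without mock clone 5) when 1 clone was left out. ITGB8 was at 1.79, 2.09 and 1.96 across the mock clones, against 1.96, 1.94 and 2.54 across the NCCRP1 clones (difference 0.20, 95% interval -0.28 to 0.68), where NCCRP1 clone 17 stood alone. Without that clone the ITGB8 difference was 0, and without mock clone 1 it was 0.12. With all clones it was 0.02 within run 15 and 0.28 within run 14. The antisense gene ITGB8-AS1 was listed at 0 to 1.07. Limma's adjusted p of these 6 overlapping genes ran from 0.805 to 0.969, and their intervals do not show that the levels were alike.

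The clones themselves differed in a way that most members shared. NCCRP1 clone 6 was the highest library for 7 of 10 members, whereas it was the highest for 13.6% of all tested genes. For 5 of 10 members, ITGA5, ITGAV, ITGB1, ITGB5 and ITGB6, the NCCRP1 clones stood in the order of the NCCRP1 gene itself, clone 1 below 17 below 6, as did 17.6% of tested genes. With 3 clones this order is a description with no test. Of the 45 pairs of members, 7 had a Pearson r of 0.90 or more over the 6 libraries, led by ITGA3 with ITGB5 and ITGA5 with ITGB6, both at 0.97. ITGB4 had a negative r with all 9 other members, lowest with ITGB1 at -0.90. These correlations are over 6 points that share group, run and library, and those of ITGB6 include its listed 0 in mock clones 1 and 5. The median of the 30 expressed genes nearest to each member on its chromosome differed between the groups by -0.06 to 0.08 on the log2 scale for the 10 members.

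The genes whose values over the 6 libraries were most like those of ITGB6, out of 9623 genes above 0 everywhere with a mean of at least 2, were CHD4, CFB and TNFAIP2, with a Pearson r of 0.994, 0.992 and 0.990. CFB, complement factor B, was at 1.62, 2.32 and 1.53 log2 RPKM in mock clones 1, 4 and 5, against 2.87, 5.59 and 4.27 for NCCRP1 clones 1, 6 and 17. TNFAIP2 was at 6.76, 7.48 and 6.61 against 7.57, 8.98 and 8.49. CHD4, a chromatin remodeller, also had the NCCRP1 clones above the mock clones with clone 6 highest, over a much narrower range, from 6.51 to 6.77. ITGB6 was listed at 0 in mock clones 1 and 5, so each r includes values at the floor. With so many candidates and 6 libraries, an r this high is a description of these libraries.

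Because α and β chains act as pairs, the log2 ratio of their mRNA levels was set out for 9 known heterodimers, which removes any scaling of a whole library. The 3 by 3 design allows no exact p under 0.1, so these are given as values. For α5β1 the log2 ratio of ITGA5 to ITGB1 was -2.05, -2.08 and -2.67 in mock clones 1, 4 and 5, against -1.93, -1.98 and -1.94 for NCCRP1 clones 1, 6 and 17. The NCCRP1 clones lay within 0.05 of each other and above each mock clone, of which mock clone 5 was far the lowest. The mean ratio was 0.32 higher, 0.14 within run 15 and 0.71 within run 14.

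For αvβ6 the log2 ratio of ITGAV to ITGB6 was 3.15 in mock clone 4 and 2.61, 1.89 and 2.20 in NCCRP1 clones 1, 6 and 17. In mock clones 1 and 5 ITGB6 was listed at 0, and the ratio of the listed values was 3.57 and 3.71. ITGAV thus exceeded ITGB6 in every library, by less in the NCCRP1 clones. For α6β4 ITGA6 was far below ITGB4, at -3.32, -3.23 and -3.02 across the mock clones, against -3.04, -2.61 and -2.93 across the NCCRP1 clones, with overlap between mock clone 5 and NCCRP1 clone 1. The other 6 ratios overlapped between the groups, and their group means differed by -0.09 to 0.10.

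**Figure D3:**
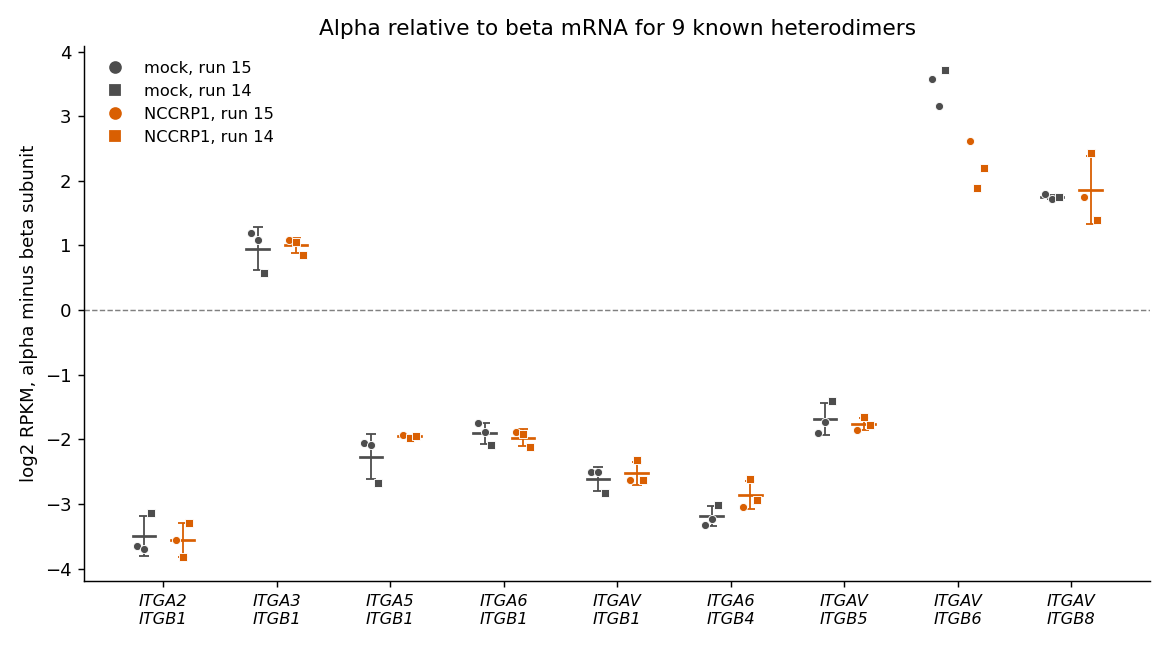
Log2 RPKM of the α gene minus that of the β gene for 9 heterodimers (x axis, α above β), one point per clone, with the mean and SD of 3 clones except for ITGAV with ITGB6, where ITGB6 was listed at 0 in 2 mock clones. The groups are apart for ITGA5 with ITGB1 and for ITGAV with ITGB6.

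On the linear scale ITGB4 made up 60.5% ± 3.09 of the summed RPKM of the 5 β genes in mock and 52.4% ± 4.69 in NCCRP1 clones (SD, n = 3 each). It took 57.5% in both mock clone 5 and NCCRP1 clone 1, so the groups met there. The share of ITGB5 was 13.1% ± 1.6 and 16.8% ± 2.11, and that of ITGB1 25.1% ± 4.51 and 28.3% ± 2.3. ITGB6 took 0.675%, 1.62% and 1.04% in NCCRP1 clones 1, 6 and 17 and 0.475% in mock clone 4. Among the 5 α genes ITGA3 held 72.6% ± 2.41 and 72.0% ± 1.33, and ITGA5 7.77% ± 0.422 and 9.36% ± 0.716. The summed RPKM of the α genes was 213 ± 14.6 in mock and 257 ± 33.6 in NCCRP1 clones, and that of the β genes 320 ± 11.3 and 327 ± 15.5.

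The other integrin subunit genes were mostly listed at 0 in these clones. Of 16, among them the leukocyte subunits ITGAL, ITGAM and ITGAX, the platelet β3 chain ITGB3 and the collagen receptor gene ITGA1, 11 were listed at 0 in every library, and 0 of the 5 tested passed limma's test (0 also at an unadjusted p under 0.05). The 3 with the lowest p were ITGA2B at 3.15 ± 0.19 log2 RPKM in mock and 2.71 ± 0.49 in NCCRP1 clones, ITGB2 at 1.58 ± 0.66 and 2.18 ± 0.81, and ITGB7 at 1.19 ± 0.40 and 1.08 ± 0.60 (SD, n = 3 each). ITGB2, the leukocyte β2 chain, was at 3.10 in NCCRP1 clone 6 and between 0.82 and 2.03 in the other libraries.

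Among 24 genes for matrix ligands, 19 were tested, and 1 passed limma's test, against 0.102% of all tested genes. It was CCN1, a matricellular ligand of αv and α6 integrins. The list was drawn up with earlier results of these data known, so its counts beside these shares are a description. CCN1 rose from 4.51 ± 0.28 to 5.92 ± 0.41 log2 RPKM, 2.65-fold (limma adjusted p = 0.0447). Its values were 4.56, 4.21 and 4.77 in mock clones 1, 4 and 5, against 5.47, 6.29 and 5.99 for NCCRP1 clones 1, 6 and 17, so the groups did not overlap. This call was lost in 12 of the 17 other settings, with limma adjusted p from 0.0604 to 0.202 in those 12, among them leaving out any clone other than NCCRP1 clone 1. The difference lay between 1.22 and 1.63 in the 17 settings. Of the 19, 6 were higher and 1 was lower at an unadjusted p under 0.05, against 7.33% of all tested genes in either direction, and the median difference was 0.28. The collagen IV chains COL4A1 (3.22 ± 0.13 in mock and 3.71 ± 0.06 in NCCRP1 clones) and COL4A2 (4.57 ± 0.37 and 5.16 ± 0.05), basement membrane ligands of α2β1, had non-overlapping groups and limma adjusted p of 0.385 and 0.406. Their log2 differences were 0.49 and 0.58, while the median of the 30 nearest expressed neighbours differed by -0.39 and -0.38. CCN2 was listed at 0 in each mock clone and at 0.67, 0.60 and 1.42 in NCCRP1 clones 1, 6 and 17. Chosen after their values were seen, COL7A1, the anchoring fibril collagen, was at 5.91 ± 0.20 and 5.48 ± 0.07, and FN1, the fibronectin gene, at 0, 0.54 and 0.62 across the mock clones, against 0, 1.51 and 0.48 across the NCCRP1 clones.

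Genes that link integrins to actin or switch them on gave no call. Of 29 activators and adaptors 26 were tested and 0 passed limma's test, with 0 at an unadjusted p under 0.05 and a median difference of -0.03. FLNA, encoding the actin crosslinker filamin A, had the lowest p, at 8.77 ± 0.38 log2 RPKM in mock and 8.31 ± 0.05 in NCCRP1 clones. Mock clone 5, at 8.34, was at the NCCRP1 level. TNS3, for a tensin, was at 4.98 ± 0.24 and 5.30 ± 0.20 and ILK, for integrin-linked kinase, at 5.35 ± 0.22 and 5.62 ± 0.10. Of 13 genes for inactivators and trafficking 12 were tested, with 0 calls (0 at an unadjusted p under 0.05) and a median of -0.05. The integrin inhibitors SHARPIN (6.58 ± 0.13 and 6.26 ± 0.24) and ITGB1BP1 (3.02 ± 0.28 and 2.71 ± 0.21) and the trafficking adaptor GIT1 (6.49 ± 0.06 and 6.30 ± 0.03) had the lowest p there.

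Hemidesmosome partners of α6β4 had 0 calls among 7 tested (1 at an unadjusted p under 0.05, against 7.33% of all tested genes) and a median of -0.01. KRT14, a basal keratin, was at 4.22, 3.71 and 2.0 log2 RPKM in mock clones 1, 4 and 5, against 2.23, 1.89 and 1.11 for NCCRP1 clones 1, 6 and 17, so mock clone 5 lay within the NCCRP1 range. COL17A1, the hemidesmosomal collagen, was at 7.19 ± 0.06 and 6.83 ± 0.50, and ERBIN at 4.30 ± 0.25 and 4.51 ± 0.28. Tetraspanins and other surface partners had 0 calls among 14 (2 at an unadjusted p under 0.05, against the same 7.33%) and a median of 0.13. BSG, encoding basigin, was at 8.02 ± 0.15 and 8.61 ± 0.17, and its 30 nearest expressed neighbours differed by a median of 0.54, about as much as BSG's own 0.59. CD82, a tetraspanin, was at 5.02 ± 0.25 and 5.49 ± 0.29, and the amino acid transporter gene SLC7A5 at 7.74 ± 0.15 and 7.41 ± 0.19.

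Of 11 genes for TGF-β ligands, their binding partners and receptors, 8 were tested and 0 passed limma's test, with a median of 0.02. At an unadjusted p under 0.05 there were 3, against 7.33% of all tested genes. TGFB2, a ligand, was at 3.72, 4.41 and 3.82 log2 RPKM in mock clones 1, 4 and 5, against 4.40, 5.46 and 5.21 for NCCRP1 clones 1, 6 and 17. Its groups met at mock clone 4 and NCCRP1 clone 1 (log2 difference 1.04, limma adjusted p = 0.342). Any link of TGFB2 to αvβ6 or αvβ8 was not tested. LTBP2, of the latent TGF-β binding protein family, was at 0.60 ± 0.16 and 1.30 ± 0.01, and LTBP4, of the same family, at 4.35 ± 0.45 and 3.79 ± 0.33. TGFB1, whose latent form carries the motif bound by αvβ6, was at 3.35 to 3.70 in the mock and 3.28 to 3.78 in the NCCRP1 clones. It was named for that role after its values were seen.

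**Figure D4:**
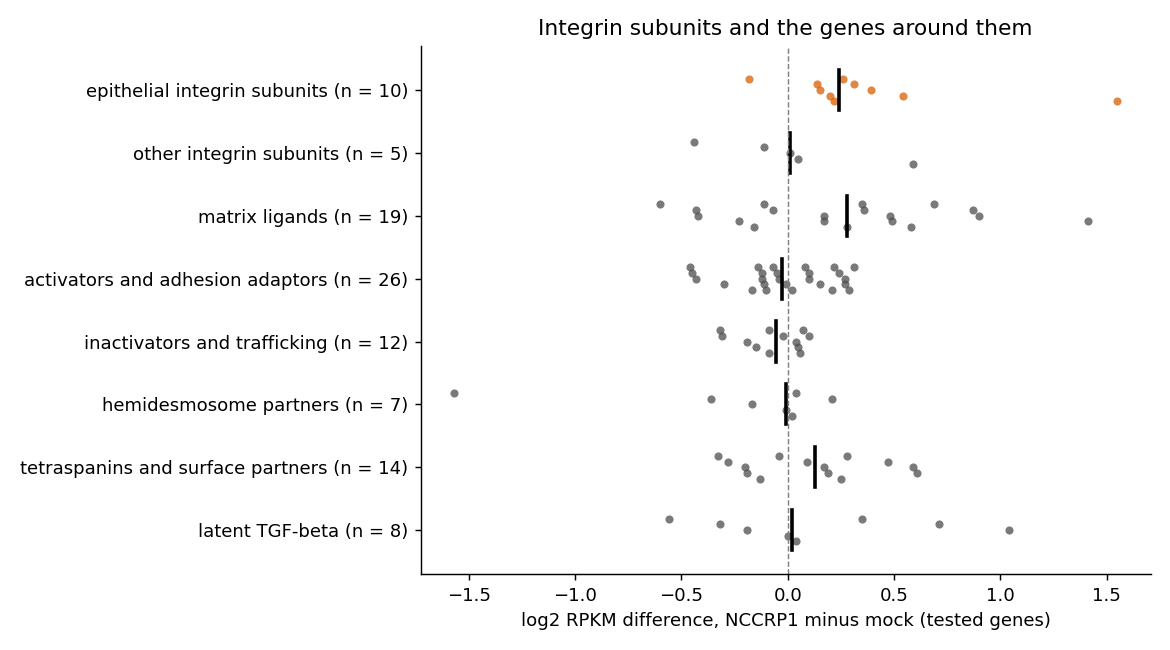
Log2 RPKM difference, NCCRP1 minus mock (x axis), of each tested gene of the integrin subunits (orange) and of 7 lists of related genes (grey), with the median of each as a black bar. The median is 0.24 for the integrin subunits and 0.28 for the matrix ligands, and between -0.05 and 0.13 for the other lists.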

How the data were processed

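Total RNA of 6 KYSE150 clones was depleted of ribosomal RNA and read on an Ion Torrent system, per the labels' protocols. The submitters' processing notes name hg19 and bedtools 2.25.0 without roles, and the aligner is not given in the sources used here. The files' header calls the values RPKM, but what the authors deposited is log2 RPKM: as powers of 2, multiplied by transcript length in kilobases, they sum to 1130000 to 1150000 per library, against at least 12000000 as natural logarithms. Depth was estimated from whole-read steps of microRNA genes (23.4% to 33.1% of low values within 0.005 of a whole read), too few for a count model. Multiples of the estimated depths lay outside the range searched, so a larger depth was not examined. The read numbers given for ITGB6 scale with this estimate. Symbols of 37997 IDs came from RefSeq (GRCh38.p14), and the only coordinates given are those of the 2 RefSeq promoter stretches in that build, since the notes name another.

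Genes above 0 in at least 3 libraries were tested with limma 3.58.1 (R 4.3.3, trended and robust, two-sided, group alone, Benjamini-Hochberg adjustment over 12737 genes, threshold 0.05), after a check on simulated data. The members and lists were chosen with earlier results of these data known. From each list, genes past the threshold and up to 3 more with the lowest p are named. The 17 alternatives changed filter, pseudocount, scaling, empirical Bayes, run, neighbours or left out 1 clone.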

Additional observations from a re-analysis of the deposited data

How the results depend on the processing

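Under all 17 alternatives 0 integrin subunits passed limma's test, and the median log2 difference of the members lay between 0.17 and 0.31. Of the 168 values for single members, 166 kept their direction and their side of the threshold. The exceptions were of ITGA2, whose difference turned to -0.05 with the run as a term and to -0.05 without mock clone 1 (range -0.05 to 0.44 over the clones left out). The count of all genes past the threshold moved from 13 to 3 with no filter, 7 for genes above 0 in all 6 libraries, 4 with log2(RPKM + 1), 1 with log2(RPKM + 0.1), 5 without robust, 3 without trend, 2 with the run as a term and 8 with neighbours subtracted. Leaving out 1 clone gave 0 to 29 genes: 5 without mock clone 1, 0 without mock clone 5, 29 without NCCRP1 clone 1, 6 without NCCRP1 clone 6 and 2 without NCCRP1 clone 17. For CCN1, checked in the same settings after its value was seen, the call was kept in 5 of 17: for genes above 0 in all 6 libraries, for genes with a mean of at least 1, with median centring, with neighbours subtracted and without NCCRP1 clone 1. ITGB6 could not be tested where genes had to be above 0 in every library or have a mean of at least 1. The floor of the listed values limits ITGB6 most, since its listed 0 in mock clones 1 and 5 can hide up to about 57 and 75 reads at the estimated depth. No paired analysis was possible because the groups share 1 clone number only, which marks no shared origin.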
